A study of Mus musculus with 2 samples.

Results

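Serpins are a family of proteins that mostly trap serine proteases: the target protease cuts an exposed loop of the serpin and is then held in an inactive complex. Their clades are named by letter, from the secreted plasma inhibitors of clade A and the largely intracellular inhibitors of clade B to clade H, whose member is a collagen chaperone and inhibits no protease. In the ovary, plasminogen activators and their serpin inhibitors are known for the proteolysis that accompanies follicle rupture, where plasminogen is turned into plasmin. Members were the genes whose symbol in the deposited annotation begins with Serpin, together with *Plat*, *Plau*, *Plaur*, *Plg*, *F2r*, *F2rl1*, *F3* and *Thbd*, counting the probe sets that name 1 gene alone. This gave 54 of 20752 genes, 46 serpins and 8 others, measured by 74 probe sets. A probe set is a group of short oligonucleotides on an Affymetrix mouse genome array that together measure 1 transcript.

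PNA ovaries came from female ICR offspring of dams injected daily on gestation days 16 to 18 with 70 µl of sesame oil that held 350 µg of DHT, dihydrotestosterone, an androgen outside the reach of aromatase. Control ovaries came from offspring of dams given the oil alone. Each group held 5 ovaries and was measured on 1 array, and the labels give diestrus as the cycle stage. How old the offspring on the arrays were, and how RNA of the 5 ovaries was combined, no source used here states. The material was whole ovary, so fewer cells of a type and less RNA per cell cannot be told apart.

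The values are linear signal intensities as deposited, and the ratios are PNA over control on the log2 scale. A gene was represented by its single-gene probe set with the highest mean signal, and genes are called higher or lower in PNA ovaries where the ratio reached 1.5-fold (0.585 on the log2 scale), the fold change the study applied. A floor for low signals was set at the 40th percentile of an array, 30.6 for PNA ovaries and 30.4 for control ovaries. No direction is read for a gene that both arrays put under it, and a fold against a signal under it is given as a lower bound against the floor. Neither group had a second array, so no SD and no p-value can be given, and every value is only as precise as 1 array per group allows. As a measure of how far probe sets of 1 gene differ, the log2 ratios of the 2 probe sets differed by a median of 0.10, and by 0.33 at the 90th percentile, over the 3430 genes with exactly 2 probe sets above the floor on both arrays. Signals of different probe sets are not on a common scale, so levels are compared between groups and not between genes. Of the markers of ovarian cells, 8 of 8 oocyte genes, 8 of 8 granulosa cell genes and 6 of 6 corpus luteum genes lay above the floor, while 0 of 3 oviduct genes and 0 of 3 adipocyte genes did.

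Serpins of the *Serpina3* group moved in opposite directions in PNA ovaries. *Serpina3n*, a secreted inhibitor related to human antichymotrypsin, and *Serpina3g*, an intracellular inhibitor of cathepsins, were higher, while *Serpina3a* and the antitrypsin gene *Serpina1b* were lower. Of the 8 genes outside the serpins, only *F2r*, the thrombin receptor PAR1, passed 1.5-fold, and it was higher. Of the 46 serpins, 22 passed the floor in PNA or control ovaries, and 2 of these 22 were higher (9.09%) and 2 were lower (9.09%). Over all 14116 genes that passed it, 2.49% were higher and 2.16% were lower, 4.65% in either direction. No test of this difference was run, and the serpin shares rest on 2 genes in each direction. The other 18 serpins had log2 ratios between -0.41 and 0.35. The median log2 ratio was -0.08 for the 22 serpins, against -0.01 for all genes above the floor. The remaining 24 serpins were under the floor on both arrays, the highest of them at a signal of 27.0.

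**Figure D1:**
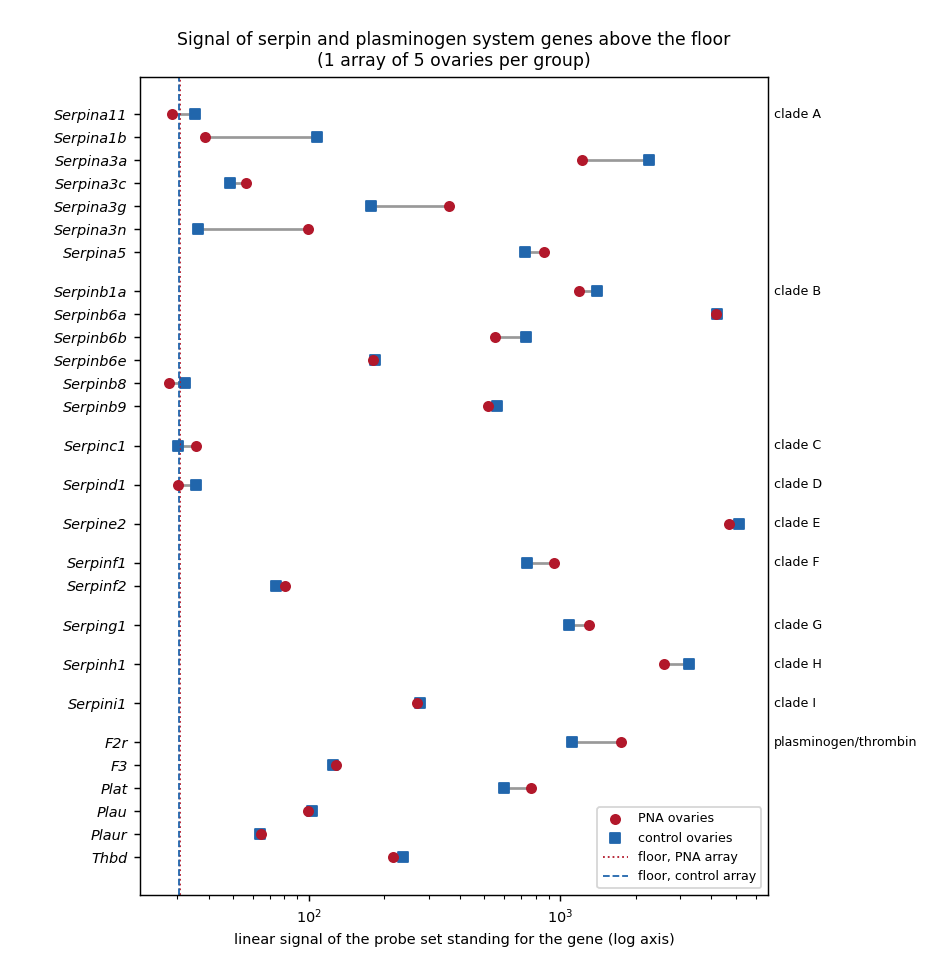
Linear signal (log axis) in PNA ovaries (circles) and control ovaries (squares) for 27 of the 28 serpin and plasminogen system genes above the floor, 1 array per group, with the floor of each array as a vertical line. The longest gaps between the groups belong to Serpina3n (99.0 and 36.1) and Serpina1b (38.6 and 107), and most other pairs of symbols nearly touch.

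The 300-base promoter windows of *Serpina3g*, *Serpina3n*, *Serpina3c* and *Serpina3a* (RefSeq, GRCm38.p6, from 250 bases before to 50 bases after the annotated start) are shown because these neighbouring genes of chromosome 12 had different ratios. Capitals in *Serpina3g* mark a match to the GAS motif TTCNNNGAA, which STAT factors bind, and capitals in *Serpina3n* and *Serpina3c* mark the 9 bases that align with it. Capitals in *Serpina3a* mark a match, on the opposite strand, to the core of the interferon-stimulated response element (ISRE), GAAA repeated after 2 bases of any kind.
Serpina3g, chr12:104235897-104236196, plus strand: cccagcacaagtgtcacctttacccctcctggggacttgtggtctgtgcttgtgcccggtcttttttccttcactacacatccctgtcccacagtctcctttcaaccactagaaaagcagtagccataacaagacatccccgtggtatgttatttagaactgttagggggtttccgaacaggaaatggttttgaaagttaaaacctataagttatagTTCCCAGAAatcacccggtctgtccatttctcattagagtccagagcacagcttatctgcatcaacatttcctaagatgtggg
Serpina3n, chr12:104406458-104406757, plus strand: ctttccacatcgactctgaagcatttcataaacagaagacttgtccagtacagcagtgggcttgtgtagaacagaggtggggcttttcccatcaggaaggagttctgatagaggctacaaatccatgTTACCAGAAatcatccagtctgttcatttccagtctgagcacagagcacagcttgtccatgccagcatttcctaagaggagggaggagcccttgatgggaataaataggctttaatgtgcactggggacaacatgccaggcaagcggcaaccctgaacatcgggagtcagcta
Serpina3c, chr12:104153823-104154122, minus strand: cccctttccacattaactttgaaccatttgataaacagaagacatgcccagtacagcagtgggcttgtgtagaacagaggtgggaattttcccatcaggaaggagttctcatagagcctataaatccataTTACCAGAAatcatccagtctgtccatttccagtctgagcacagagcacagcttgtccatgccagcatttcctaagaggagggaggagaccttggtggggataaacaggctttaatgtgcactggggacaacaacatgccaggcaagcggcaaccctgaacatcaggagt
Serpina3a, chr12:104112474-104112773, plus strand: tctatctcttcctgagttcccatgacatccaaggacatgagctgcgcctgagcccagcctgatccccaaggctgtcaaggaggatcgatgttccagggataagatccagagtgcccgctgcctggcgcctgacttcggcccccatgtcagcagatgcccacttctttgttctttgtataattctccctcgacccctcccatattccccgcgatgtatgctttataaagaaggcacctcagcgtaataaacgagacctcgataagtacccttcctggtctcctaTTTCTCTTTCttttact

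The windows of *Serpina3n* and *Serpina3c* were 89.9% identical over their whole length. The GAS match of *Serpina3g* lay at positions -33 to -25 from its annotated start, and the best local alignment with the *Serpina3n* window, 66.4% identical over 217 columns, placed the matching stretch at positions -123 to -115 of *Serpina3n*. Counted from 1 at the first base of the match, the aligned stretch of both *Serpina3n* and *Serpina3c* carried C3A, and its letters no longer match the motif. In *Serpina3f*, which has no probe set of its own here, the stretch carried C5T and still matches. In *Serpina3i*, whose signal was under the floor on both arrays (16.6 in PNA and 20.1 in control ovaries), the stretch was the same as in *Serpina3g*. In *Serpina3b*, which has no probe set of its own here either, the stretch carried T2C, C3A and G7T and no longer matches. The best local alignments of *Serpina3a* and *Serpina3j* with *Serpina3g* did not cover the stretch. Of the like windows of *Serpina3n* and *Serpina3c*, the first belongs to a gene past 1.5-fold and the second does not, each on a single probe set. Of the 2 *Serpina3* genes that were higher 1 held the GAS letters in its window. The part of these letters in the ratios was not tested.

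Both strands of all 32851 promoter windows were searched for 5 motifs, and 40 of the 54 members had a window, 46 windows in all. GAS (TTCNNNGAA) was found in 9 of the 46 member windows and in 8.30% of all windows. The ISRE core was found in 3 member windows, those of *Serpina3a*, *Serpinb6a* and *Serpinb9*, and in 3.44% of all windows. The androgen response half-site (AGAACA) was found in 14 member windows and in 19.0% of all, and those of *Serpina3n*, *Serpina3c*, *Serpina3a* and *Serpina1b* each held 1 match while that of *Serpina3g* held none. The full androgen response element, AGAACA followed after 3 bases of any kind by TGTTCT, which contains the half-site on each strand, was found in no member window and in 3 of all windows. TATAAA was found in 13 member windows and in 13.6% of all windows. A match is a stretch of letters and was not tested as a binding site, and the windows of 1 gene can overlap.

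Clade A holds the secreted inhibitors of plasma, among them the antitrypsins and hormone carriers. Of its 18 genes, 7 lay above the floor, 2 of them higher, 2 lower and 3 between. Over all genes above the floor 2.49% were higher and 2.16% were lower, and the difference was not tested. *Serpina3n* had a signal of 99.0 in PNA ovaries and 36.1 in control ovaries, 2.74-fold higher (log2 ratio 1.45). This was the 32nd largest increase among the 14116 genes above the floor, measured by a single probe set whose control signal was close to the floor. *Serpina3g* had a signal of 363 in PNA ovaries and 177 in control ovaries, 2.05-fold higher (log2 ratio 1.04), the 79th largest increase. *Serpina3a* went the other way on its single probe set, with a signal of 1221 in PNA ovaries and 2254 in control ovaries, 1.85-fold lower (log2 ratio -0.89, the 138th largest decrease). *Serpina3c* lay between, at 56.3 in PNA ovaries and 48.8 in control ovaries (log2 ratio 0.21). The other *Serpina3* genes measured, *Serpina3i*, *Serpina3k* and *Serpina3m*, were under the floor on both arrays. Of the 4 *Serpina3* genes above the floor, 2 were thus higher, 1 was lower and 1 was between.

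*Serpina1b* encodes an alpha-1-antitrypsin, an inhibitor of neutrophil elastase that in the mouse is made mainly by the liver. It had a signal of 38.6 in PNA ovaries and 107 in control ovaries, 2.79-fold lower (log2 ratio -1.48, the 52nd largest decrease). Its second probe set read 39.2 in PNA ovaries and 89.7 in control ovaries, 2.29-fold lower (log2 ratio -1.19), so that both were past 1.5-fold in the same direction. Both belong to the probe set type that can also hybridise with related sequences (suffix x), and the first of them aligns at 4 places in the deposited annotation. A further probe set of that type, shared by *Serpina1b*, *Serpina1c* and *Serpina1e*, read 6.62 in PNA ovaries and 7.24 in control ovaries, both under the floor, and the one shared by *Serpina1a* and *Serpina1d* read 10.1 and 12.1 in PNA and control ovaries. The signal assigned to *Serpina1b* is therefore uncertain among these near-identical copies. *Serpina1c*, whose promoter window is 91.4% identical to that of *Serpina1b*, read 14.2 on both arrays.

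*Serpina5*, the protein C inhibitor, which also inhibits urokinase, is the neighbour of *Serpina3a* on chromosome 12. It had a signal of 867 in PNA ovaries and 727 in control ovaries (log2 ratio 0.25), under 1.5-fold. *Serpina11* was above the floor in control ovaries alone, at 28.5 in PNA ovaries and 35.4 in control ovaries, at least 1.15-fold lower. The hormone carriers *Serpina6* (corticosteroid-binding globulin) and *Serpina7* (thyroxine-binding globulin), and *Serpina9*, *Serpina10*, *Serpina12*, *Serpina1f* and *Serpina4-ps1*, were under the floor on both arrays. In the order of the 28 serpin genes and pseudogenes of chromosome 12 in the RefSeq table, *Serpina3a*, *Serpina3g* and *Serpina3n* stand at places 15, 21 and 28, and 11 of the 28 had no single-gene probe set.

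**Figure D2:**
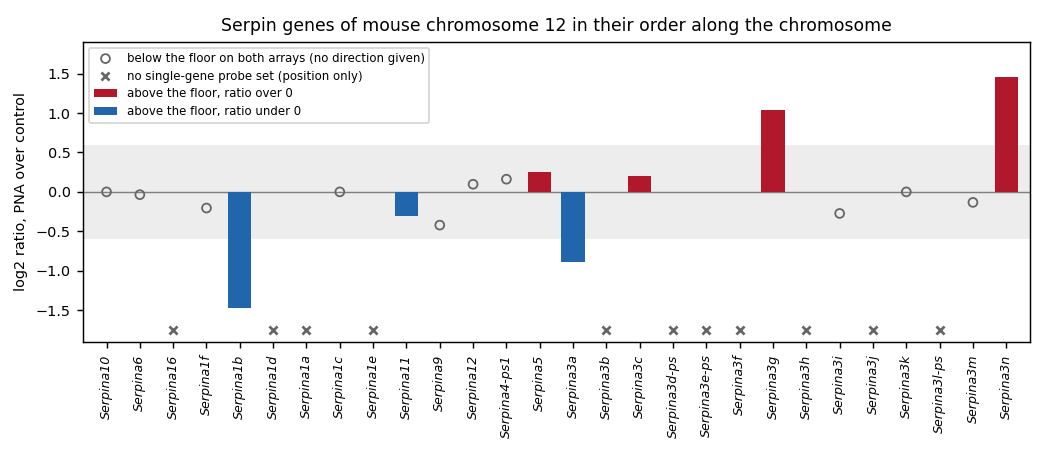
Log2 ratio, PNA over control, of the serpin genes of mouse chromosome 12 in their order along the chromosome, with bars for genes above the floor, open circles for genes under it on both arrays and crosses for genes without a probe set of their own. Bars past the grey band of 1.5-fold point down for Serpina1b and Serpina3a and up for Serpina3g and Serpina3n.

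Several marker lists moved beside these genes. Of the 9 interferon-stimulated genes measured, 8 lay above the floor and all 8 were higher, with a summed signal of 2688 in PNA ovaries and 1276 in control ovaries, and *Mx1* was under the floor on both arrays. Of the 6 acute-phase genes above the floor, 2 were higher, 3 were lower and 1 was between. The acute-phase gene *Saa3* had a signal of 423 in PNA ovaries and 231 in control ovaries (log2 ratio 0.88), and *Cp* (ceruloplasmin) 356 in PNA ovaries and 889.9 in control ovaries (log2 ratio -1.32). The probe sets of *Cp* disagreed, since of the 7 above the floor 5 were past 1.5-fold lower, 1 was past it higher (185 in PNA ovaries and 112 in control ovaries, log2 ratio 0.73) and 1 was between (log2 ratio 0.37). Of 6 neutrophil markers, 4 lay above the floor and 3 of these were higher, *S100a8*, *S100a9* and *Ngp*. The summed signal of the list was 444 in PNA ovaries and 188 in control ovaries. *Ngp* and *Ltf* passed the floor in PNA ovaries alone. *Ngp* read 36.6 in PNA ovaries and 20.9 in control ovaries, which against the floor is at least 1.20-fold higher, a bound under 1.5-fold. *Mpo* and *Camp* were under the floor on both arrays. Of 7 macrophage and monocyte markers, 1 was higher and none lower, with a summed signal of 4237 in PNA ovaries and 3744 in control ovaries. Of 7 markers of mesothelium and surface epithelium, all above the floor, *Krt7* and *Krt19* were higher and none was lower. The summed signal of this list was 1217 in PNA ovaries and 833 in control ovaries. *Upk1b* came to a log2 ratio of 0.13 on the probe set that stood for it. Its other probe sets, all above the floor, came to 0.94 and 0.95, past 1.5-fold higher, and to 0.48. Among the steroidogenic markers, *Cyp19a1* (aromatase) of granulosa cells had a signal of 1578 in PNA ovaries and 388 in control ovaries (log2 ratio 2.02). *Cyp17a1* of theca cells read 5448 in PNA ovaries and 2709 in control ovaries (2.01-fold higher). The steroidogenic markers *Hsd17b1* (log2 ratio 0.16) and *Star* (log2 ratio 0.11) stayed under 1.5-fold. Of the 8 granulosa cell markers, 4 had log2 ratios over 0 and 4 under 0. *Lhcgr*, the luteinizing hormone receptor, on the corpus luteum list, had a signal of 458 in PNA ovaries and 1246 in control ovaries (log2 ratio -1.44). It was the only 1 of the 6 corpus luteum markers past 1.5-fold. Of these 6, 4 had log2 ratios over 0 and 2 under 0, with a summed signal of 39646 in PNA ovaries and 35656 in control ovaries. The part of these lists and genes in the values of *Serpina3n*, *Serpina3g*, *Serpina3a* and *Serpina1b* was not tested. For *Serpina1b*, 4 of 8 liver markers lay above the floor, of which *Ahsg* was higher and none was lower, and *Alb* read 13.8 in PNA ovaries and 14.5 in control ovaries, under the floor. The summed signal of the liver markers was 712 in PNA ovaries and 570.2 in control ovaries.

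Clade B serpins act mainly inside cells and protect them from proteases of granules and lysosomes. Of its 18 genes, 6 lay above the floor, and none passed 1.5-fold in either direction. All 6 had log2 ratios under 0, from -0.41 to -0.02, with a median of -0.17, against -0.01 for all genes above the floor. *Serpinb6b* had a signal of 552 in PNA ovaries and 732 in control ovaries (log2 ratio -0.41). *Serpinb1a*, an inhibitor of neutrophil elastase, had a signal of 1184 in PNA ovaries and 1400.4 in control ovaries (log2 ratio -0.24), and its second probe set read 101 and 131 in PNA and control ovaries (log2 ratio -0.38). *Serpinb9*, an inhibitor of granzyme B, had a signal of 517 in PNA ovaries and 560.0 in control ovaries (log2 ratio -0.12), with -0.29 on its second probe set. *Serpinb6a* read 4173 in PNA ovaries and 4225 in control ovaries (log2 ratio -0.02), and *Serpinb6e* 179.7 and 184 in PNA and control ovaries (log2 ratio -0.04). *Serpinb8* was above the floor in control ovaries alone, at 27.8 in PNA ovaries and 32.3 in control ovaries, at least 1.06-fold lower. The 12 others, among them *Serpinb2*, the plasminogen activator inhibitor of macrophages, and *Serpinb5* (maspin), were under the floor on both arrays, at signals of at most 23.4.

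**Figure D3:**
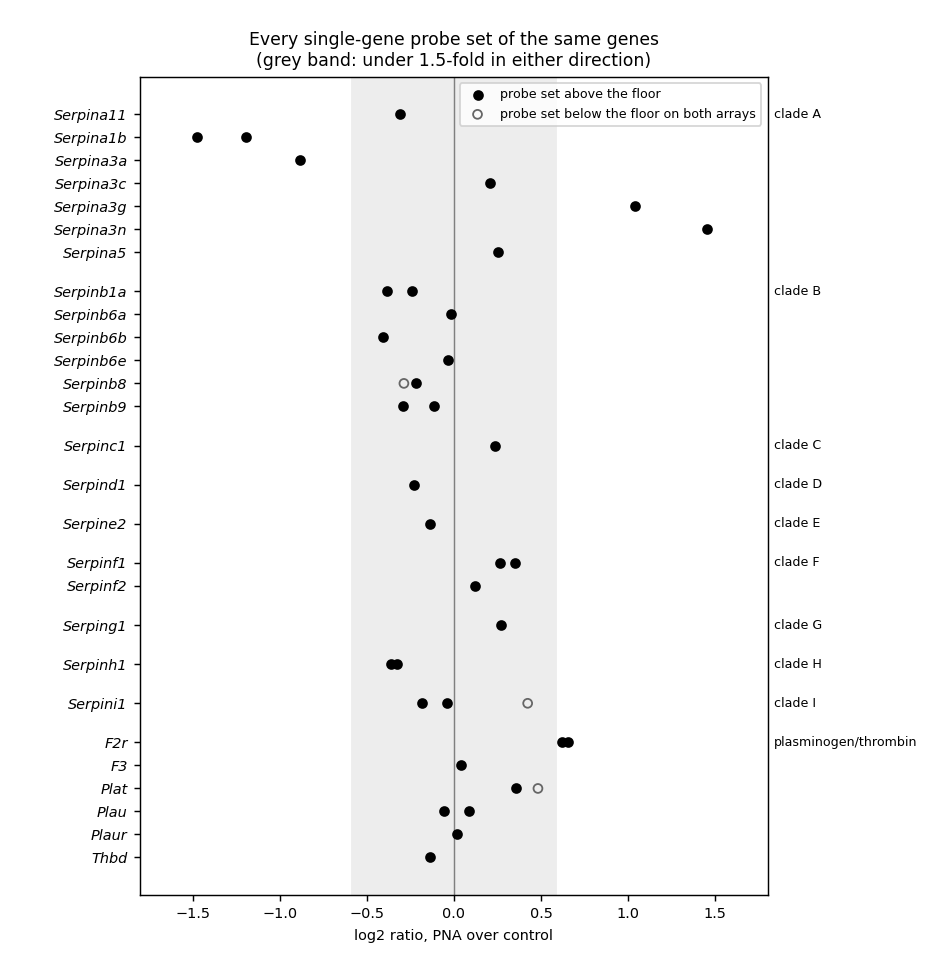
Log2 ratio, PNA over control, of every single-gene probe set of 27 of the 28 serpin and plasminogen system genes above the floor, with filled points for probe sets above the floor and open points for those under it on both arrays. Outside the grey band of 1.5-fold lie both probe sets of Serpina1b (-1.48 and -1.19), both of F2r (0.65 and 0.62), and the single probe sets of Serpina3a, Serpina3g and Serpina3n.

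The serpins of clades C to I act on coagulation, fibrinolysis, complement and matrix, and none of them passed 1.5-fold. *Serpine2* (protease nexin-1), an inhibitor of thrombin and of both plasminogen activators, had a signal of 4686 in PNA ovaries and 5146 in control ovaries (log2 ratio -0.14). *Serpinf2* (alpha-2-antiplasmin), which blocks plasmin itself, read 80.4 in PNA ovaries and 74.1 in control ovaries (log2 ratio 0.12).

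*Serpinf1* (pigment epithelium-derived factor), an inhibitor of vessel growth rather than of proteases, had a signal of 942 in PNA ovaries and 739.9 in control ovaries (log2 ratio 0.35), with 0.26 on its second probe set. *Serping1*, the C1 inhibitor of complement and kallikrein, had a signal of 1302 in PNA ovaries and 1081 in control ovaries (log2 ratio 0.27). *Serpinh1* (HSP47), the chaperone that folds procollagen, lay on the other side, at 2599 in PNA ovaries and 3266 in control ovaries (log2 ratio -0.33), with -0.36 on its second probe set. These values differ from the median of all genes by less than the 1.5-fold required. *Serpini1* (neuroserpin), an inhibitor of tissue plasminogen activator in nervous tissue, read 269.7 in PNA ovaries and 278 in control ovaries (log2 ratio -0.04). The plasma inhibitors *Serpinc1* (antithrombin) and *Serpind1* (heparin cofactor II) lay at the floor, at 35.6 and 30.3 in PNA and control ovaries for *Serpinc1* and 30.4 and 35.6 in PNA and control ovaries for *Serpind1*. *Serpini2* was under the floor on both arrays.

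Among the plasminogen activator system and the thrombin receptors, 6 of 8 genes lay above the floor. Of these 1 was higher, none was lower and 5 were between, with a median log2 ratio of 0.03. Over all genes above the floor 2.49% were higher and 2.16% were lower, and a single gene gives no share to set beside these. *F2r* had a signal of 1752 in PNA ovaries and 1115 in control ovaries, 1.57-fold higher (log2 ratio 0.65), the 285th largest increase. Its second probe set read 1224 in PNA ovaries and 795 in control ovaries, 1.54-fold higher (log2 ratio 0.62). Both probe sets were just past the 1.5-fold required. The deposited alignment of the first lies within that of the second, so they are not independent readings. *F2rl1*, the trypsin-activated receptor PAR2, was under the floor on both arrays, at 17.3 in PNA ovaries and 19.6 in control ovaries. Of 6 endothelial markers above the floor none passed 1.5-fold, with a summed signal of 1181 in PNA ovaries and 1238 in control ovaries. Of 5 smooth muscle markers none did, with 5763 in PNA ovaries and 6814 in control ovaries. The interferon-stimulated, acute-phase, neutrophil, macrophage, mesothelial and liver lists above held higher genes. So did theca and interstitium (*Cyp17a1*, 1 of 4, with a summed signal of 16513 in PNA ovaries and 13026 in control ovaries). Granulosa cells did as well (*Cyp19a1* and *Amh*, 2 of 8, with 19432 in PNA ovaries and 19088 in control ovaries). Of 3 red blood cell markers only *Alas2* lay above the floor, and it was higher. Of 5 platelet markers 4 lay above the floor and none of these passed 1.5-fold, with a summed signal of 442 in PNA ovaries and 399.9 in control ovaries. The part of these lists in the *F2r* value was not tested.

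The activators themselves stayed under 1.5-fold. *Plat*, tissue plasminogen activator, had a signal of 764 in PNA ovaries and 596 in control ovaries (log2 ratio 0.36), and its second probe set was under the floor on both arrays. *Plau*, urokinase, read 99.1 in PNA ovaries and 103 in control ovaries (log2 ratio -0.06), with 99.6 and 93.8 in PNA and control ovaries on its second probe set (log2 ratio 0.09), so that its probe sets differed in sign around 0. *Plaur*, the urokinase receptor, read 64.8 in PNA ovaries and 64.1 in control ovaries (log2 ratio 0.02). *Plg*, plasminogen, which is made by the liver, was under the floor on both arrays, at 11.3 in PNA ovaries and 13.5 in control ovaries. Of the starters and brakes of coagulation, *F3* (tissue factor) read 128 in PNA ovaries and 125 in control ovaries (log2 ratio 0.04), and *Thbd* (thrombomodulin) 216 in PNA ovaries and 238 in control ovaries (log2 ratio -0.14).

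**Figure D4:**
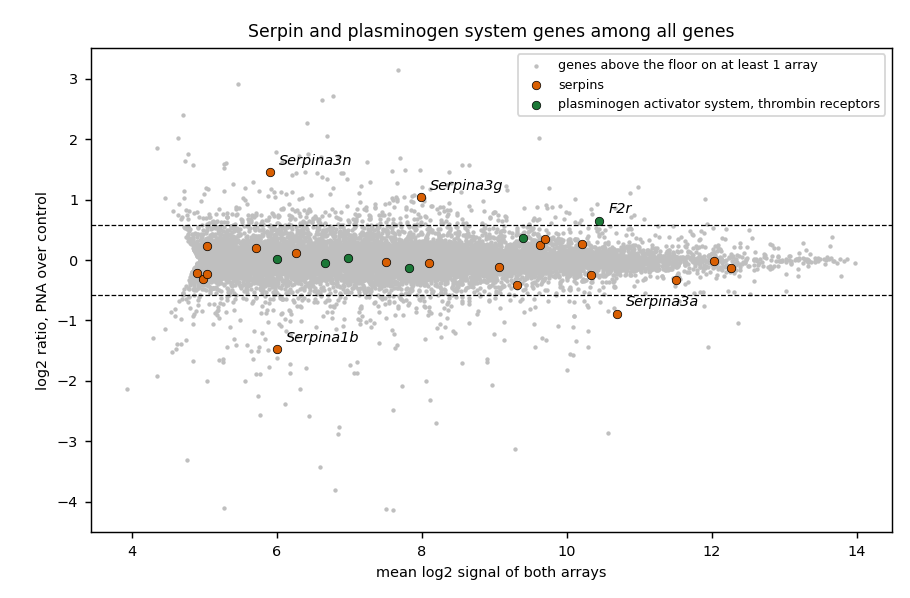
Log2 ratio, PNA over control, against the mean log2 signal of both arrays for the 14116 genes that passed the floor in PNA or control ovaries (grey), with serpins in orange and the plasminogen activator system and thrombin receptors in green. Dashed lines mark 1.5-fold, and 5 of the 27 coloured genes lie outside them, 3 above (Serpina3n, Serpina3g, F2r) and 2 below (Serpina1b, Serpina3a).

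Other genes of coagulation and fibrinolysis and known or possible targets of serpins were taken from a list of 61 genes. Of these, 60 were measured and 32 lay above the floor. Of these 32, 1 was higher (3.13%) and 3 were lower (9.38%), against 2.49% and 2.16% of all genes above the floor, with a median log2 ratio of -0.04. The lower genes were the mast cell proteases *Cma1* and *Mcpt4* and the coagulation factor *F10*, and the higher one was *F13a1*. *Cma1*, mast cell chymase, was under the floor in PNA ovaries, at 28.4, against 105 in control ovaries, at least 3.42-fold lower. *Mcpt4*, a further chymase, read 28.0 in PNA ovaries and 60.3 in control ovaries, at least 1.97-fold lower. The tryptase gene *Tpsb2* read 26.5 in PNA ovaries and 33.3 in control ovaries, at least 1.09-fold lower. Its second probe set was under the floor on both arrays, at 11.2 in PNA ovaries and 11.3 in control ovaries. *Cma1*, *Mcpt4* and *Tpsb2* each passed the floor through control ovaries alone, so their shared direction is not a separate result.

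*F10*, coagulation factor X, had a signal of 45.2 in PNA ovaries and 94.3 in control ovaries (log2 ratio -1.06), while its other 2 probe sets were under the floor on both arrays. *F13a1*, the subunit of factor XIII that cross-links fibrin and is expressed by macrophages, had a signal of 95.1 in PNA ovaries and 58.1 in control ovaries (log2 ratio 0.71). Of 17 coagulation factors, 13 were under the floor on both arrays, among them *F2* (prothrombin) and the fibrinogen genes *Fga*, *Fgb* and *Fgg*. The 4 anticoagulant genes above the floor, *Procr*, *Pros1*, *Tfpi* and *Tfpi2*, had log2 ratios between -0.02 and 0.16. The plasminogen receptor genes *Anxa2* (3689.6 in PNA ovaries and 3763 in control ovaries, log2 ratio -0.03), *S100a10* (2062 and 2070.4 in PNA and control ovaries, log2 ratio -0.01) and *Eno1* (2915 and 2719 in PNA and control ovaries, log2 ratio 0.10) stayed close to 0. So did the serine protease *Htra1* (5119.9 in PNA ovaries and 4768 in control ovaries, log2 ratio 0.10). *Prss35*, a gene of the serine protease family not established as a serpin target, did as well (2580.4 in PNA ovaries and 2545 in control ovaries, log2 ratio 0.02). The integrin subunit *Itgb1*, a partner of the urokinase receptor, read 1611 in PNA ovaries and 1680.0 in control ovaries (log2 ratio -0.06). Of the 7 clearance and receptor partner genes, the 6 above the floor on both arrays had log2 ratios between -0.38 (*Igf2r*) and 0.24 (*Mrc2*). *Lrp2* was above the floor in PNA ovaries alone, at 36.4 in PNA ovaries and 25.0 in control ovaries, at least 1.20-fold higher. The lipoprotein receptor gene *Vldlr* came to -0.07 on the probe set that stood for it, while 2 of its other 5 probe sets were past 1.5-fold lower, at 276 in PNA ovaries and 427 in control ovaries (log2 ratio -0.63) and at 155 in PNA ovaries and 234 in control ovaries (log2 ratio -0.60).

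**Figure D5:**
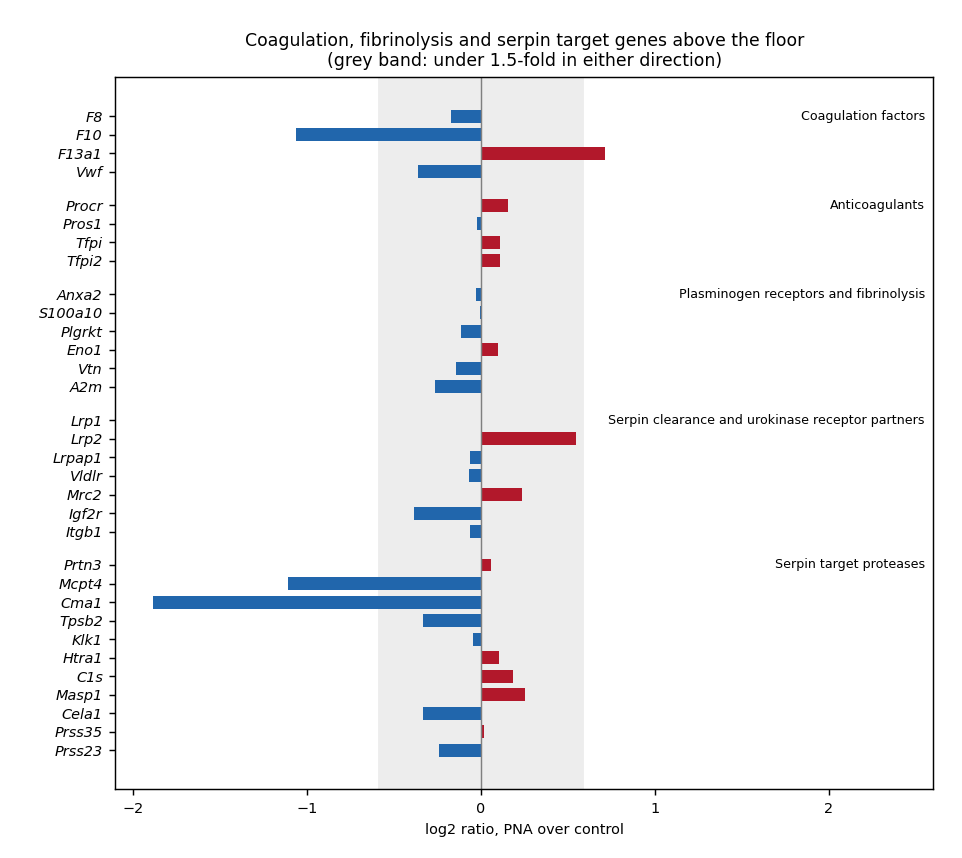
Log2 ratio, PNA over control, of the 32 coagulation, fibrinolysis and known or possible serpin target genes that passed the floor in PNA or control ovaries, grouped by role. Bars from 0 are drawn at the measured ratio, also where 1 array was under the floor (A2m, Lrp2, Mcpt4, Cma1 and Tpsb2). Outside the grey band of 1.5-fold lie F10, Mcpt4 and Cma1 on the lower side and F13a1 on the higher side.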

How the data were processed

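RNA of whole ovaries was hybridised to Affymetrix mouse genome arrays, 1 array for PNA and 1 for control ovaries, each with 5 ovaries. Per the labels RNA was extracted with Trizol, while their sampling notes name Bouin's fixative, and whether the ovaries used for RNA were fixed no source used here states. The authors deposited a linear signal intensity for each of 45101 probe sets. A second deposited table holds log2 values from which each probe set's mean of both arrays was subtracted. Which program summarised and normalized the probes no source used here states, and the ratios of the linear and the centred values differed by at most 2e-06. The deposited tables also hold the authors' own fold changes, directions and lists of differential genes, which were not used.

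The 64 control probe sets of the manufacturer were dropped, and 38130 of the other 45037 probe sets named 1 gene. Python 3.11.15 with pandas 2.3.3 and numpy 2.4.6 gave the ratios, with no test, since 1 array per group leaves no spread. The median signal was 49.5 in PNA ovaries and 48.7 in control ovaries. All 54 members matched the RefSeq gene table (GRCm38.p6) by Entrez ID. The deposited alignments name no build, and those of all 74 member probe sets overlap the gene of the same Entrez ID in that table. Promoters were aligned with Biopython 1.88. Named genes were the 8 genes outside the serpins, every serpin above the floor past 1.5-fold, up to 3 serpins of each clade with the highest mean signal, members whose probe sets disagreed, and of the pathway list those past 1.5-fold and the 6 with the highest mean signal. Further members and marker genes are given for completeness, and 1 serpin above the floor is counted but not reported here by name. The members and lists were chosen with earlier results of these data known. Alternatives were median scaling, quantile normalization, a loess trend (fraction 0.3, statsmodels 0.14.6), an offset of 50, other filters, the mean of all probe sets, a 2-fold threshold and the series value table. The steps were tested on simulated arrays.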

Additional observations from a re-analysis of the deposited data

How the results depend on the processing

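With 1 array per group no replicate could be left out. No paired analysis was possible because each group has a single array. The members called higher (*Serpina3g*, *Serpina3n*, *F2r*) and lower (*Serpina1b*, *Serpina3a*) kept their calls under all 3 other scalings, the offset, both other filters, the mean of all probe sets and the series value table. Several of these settings could not have changed a call. The 5 members lay above the floor on both arrays, so neither filter could drop them. *Serpina3a*, *Serpina3g* and *Serpina3n* have 1 probe set each, so a mean changes nothing. The series value table holds the same ratios. At a threshold of 2-fold the serpins called lower numbered 1 (*Serpina1b*), and 0 of the 8 genes outside the serpins and 0 pathway genes were higher. The alternatives for the pathway list were chosen after the data were seen. With 50 added to both signals 0 pathway genes were higher, since *F13a1* came to a log2 ratio of 0.43, and *Mcpt4* came to -0.50, under 1.5-fold. Of the pathway genes above the floor on both arrays 1 was lower (*F10*), which as the mean of its probe sets came to -0.44. Of 245 log2 ratios of the 35 named genes under 7 settings, 6 fell under the threshold applied. Only the ratios of the 5 members and 4 pathway genes past 1.5-fold could fall, so most of the 245 could not. No called gene changed sign. Over all genes, 352 higher and 305 lower genes became 158 and 161 with the offset of 50 and 89 and 112 at 2-fold. Of the member probe sets, 7 read the same signal on both arrays, and all 7 were under the floor, where no direction is read.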

Other observations

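Besides *Cma1*, *Mcpt4* and *Tpsb2*, further genes of mast cells were looked up, chosen after the values of the proteases were seen. *Cpa3*, mast cell carboxypeptidase, had a signal of 40.04 in PNA ovaries and 133 in control ovaries (log2 ratio -1.73, 3.31-fold lower). *Tpsab1*, a tryptase, read 52.9 in PNA ovaries and 74.9 in control ovaries (log2 ratio -0.50), under 1.5-fold. *Hdc*, the histidine decarboxylase that forms histamine, lay on the other side, at 171 in PNA ovaries and 126 in control ovaries (log2 ratio 0.45). *Ms4a2* and *Fcer1a*, subunits of the IgE receptor, and *Mcpt1*, *Mcpt2* and *Mrgprb1* were under the floor on both arrays. With 1 array per group these values have no replicate check.

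The 5 probe sets that name several genes including a serpin belong to no count of the report. Those shared by *Serpinb3b* and *Serpinb3c* read 7.71 and 7.48 in PNA ovaries and 7.85 and 7.82 in control ovaries. The one shared by *Serpinb9e*, *Serpinb9f*, *Serpinb9g* and a predicted gene read 17.4 in PNA ovaries and 19.2 in control ovaries. All 5, with both of the *Serpina1* group, were under the floor on both arrays.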
